A study of Homo sapiens with 14 samples.

Results

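The comparison described here set the microRNAs (miRNAs) of extracellular vesicles (EVs) released by matured epicardial cells against those of untreated pro-epicardial cells. Its members were all miRNAs with at least 1 count in the 7 libraries of these groups, taken from the raw count table by library name, and they numbered 398 of the 2632 miRNAs listed. The 7 libraries were 4 labelled SB (numbers 1 to 4) and 3 labelled NT (numbers 1, 3 and 4), out of 14 in the series. Pro-epicardial cells derived from hES-2, a human embryonic stem cell line, were thawed and plated in supplemented StemPro medium. The SB cells had 6 µM SB-431542 in that medium for 8 days, and the labels call them mature epicardial cells. The NT cells had the medium with neither SB-431542 nor any other additive for the same 8 days, and the labels call them unstimulated pro-epicardial cells. Both groups were moved on day 4 to medium passed through 100 kDa filters, and medium conditioned for 48 h was collected on days 6 and 8. All 7 libraries therefore come from 1 cell line, and the labels do not say whether the numbered samples were separate cultures. The p-values of the fold changes below come from 1 fit of all 14 libraries. That fit includes cells given TGF-β1 (5 ng/ml for 4 days) or bFGF (10 ng/ml for 8 days). These p-values measure the spread between samples within all 4 groups. Those of the permutation tests measure the spread between the 7 libraries. Either spread may be technical.

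MiRNAs are short RNAs that guide Argonaute proteins to messenger RNAs, and the bases near the 5′ end, the seed, do most of the target recognition. Cells export a part of their miRNAs in EVs, small membrane vesicles, and other small RNA carriers of the medium can be collected with them. The epicardium is the cell layer that covers the heart, and TGF-β drives its cells from an epithelial towards a mesenchymal state. SB-431542 blocks the kinase of the type I receptors for TGF-β, activin and nodal, and is used to keep epicardial cells in the epithelial state in culture.

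The mature sequences of the miRNAs that the results turn on are given below as RefSeq lists them (GRCh38.p14), with the seed, bases 2 to 8, in capitals. Of the 47 miRNAs that could be tested, 43 matched a RefSeq mature sequence, and miR-483-5p, miR-483-3p, miR-320a-3p and miR-30d-5p are given by name. The first set holds the 3 miRNAs of a single genomic cluster, with miR-125b-5p, which has the seed of miR-125a-5p.
miR-99b-5p: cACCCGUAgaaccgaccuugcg
let-7e-5p: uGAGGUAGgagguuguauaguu
miR-125a-5p: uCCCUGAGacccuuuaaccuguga
miR-125b-5p: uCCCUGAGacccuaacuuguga
The next set holds the other tested let-7 miRNAs, which have the seed of let-7e-5p and differ from it further along.
let-7a-5p: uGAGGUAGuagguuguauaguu
let-7b-5p: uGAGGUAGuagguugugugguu
let-7c-5p: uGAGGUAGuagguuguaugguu
let-7i-5p: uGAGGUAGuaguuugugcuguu
The last set holds the other miRNAs with an unadjusted p under 0.05, and miR-7704, whose share was higher in each SB library than in any NT library.
miR-126-3p: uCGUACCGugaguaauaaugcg
miR-9-5p: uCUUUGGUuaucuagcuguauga
miR-4497: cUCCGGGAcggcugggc
miR-7704: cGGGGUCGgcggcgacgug

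The libraries were shallow and uneven, with totals that overlapped between the groups. SB libraries 1 to 4 held 345, 179, 3826 and 1286 miRNA counts, and NT libraries 1, 3 and 4 held 14862, 9462 and 1010. A single count was thus 0.559% of SB 2 and 0.00673% of NT 1. NT 4 stood apart from the other two NT libraries: its 10 most abundant miRNAs held 46.9% of its counts, against 75.8% in NT 1 and 71.9% in NT 3. In SB 1 to 4 the same share was 61.2%, 52.5%, 64.8% and 48.0%. Values are shares of library counts unless stated otherwise, and fold changes come from edgeR's quasi-likelihood test over the 47 miRNAs that passed its expression filter. A share cannot tell EVs from fewer cells from less miRNA per cell or per vesicle.

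Of 47 tested miRNAs, 1 passed an adjusted p of 0.05 (edgeR, Benjamini-Hochberg), which is 2.13% of those tested. It was miR-125a-5p, lower in SB EVs, and no miRNA was higher at that threshold. At an unadjusted p under 0.05 there were 6 (12.8%), of which 4 had higher and 2 lower estimates in SB. The estimates of all 47 lay on both sides, 23 above 0 (48.9%) and 24 below (51.1%), with a median log2 fold change of -0.04. Shares did not overlap between the groups for 4 miRNAs (8.51%), with miR-7704 above in each SB library (2.13%) and miR-125a-5p, miR-1307-3p and miR-320a-3p below (6.38%). Compared within replicate numbers 1, 3 and 4, 11 miRNAs (23.4%) were higher in SB in all 3 and 9 (19.1%) were lower in all 3.

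**Figure D1:**
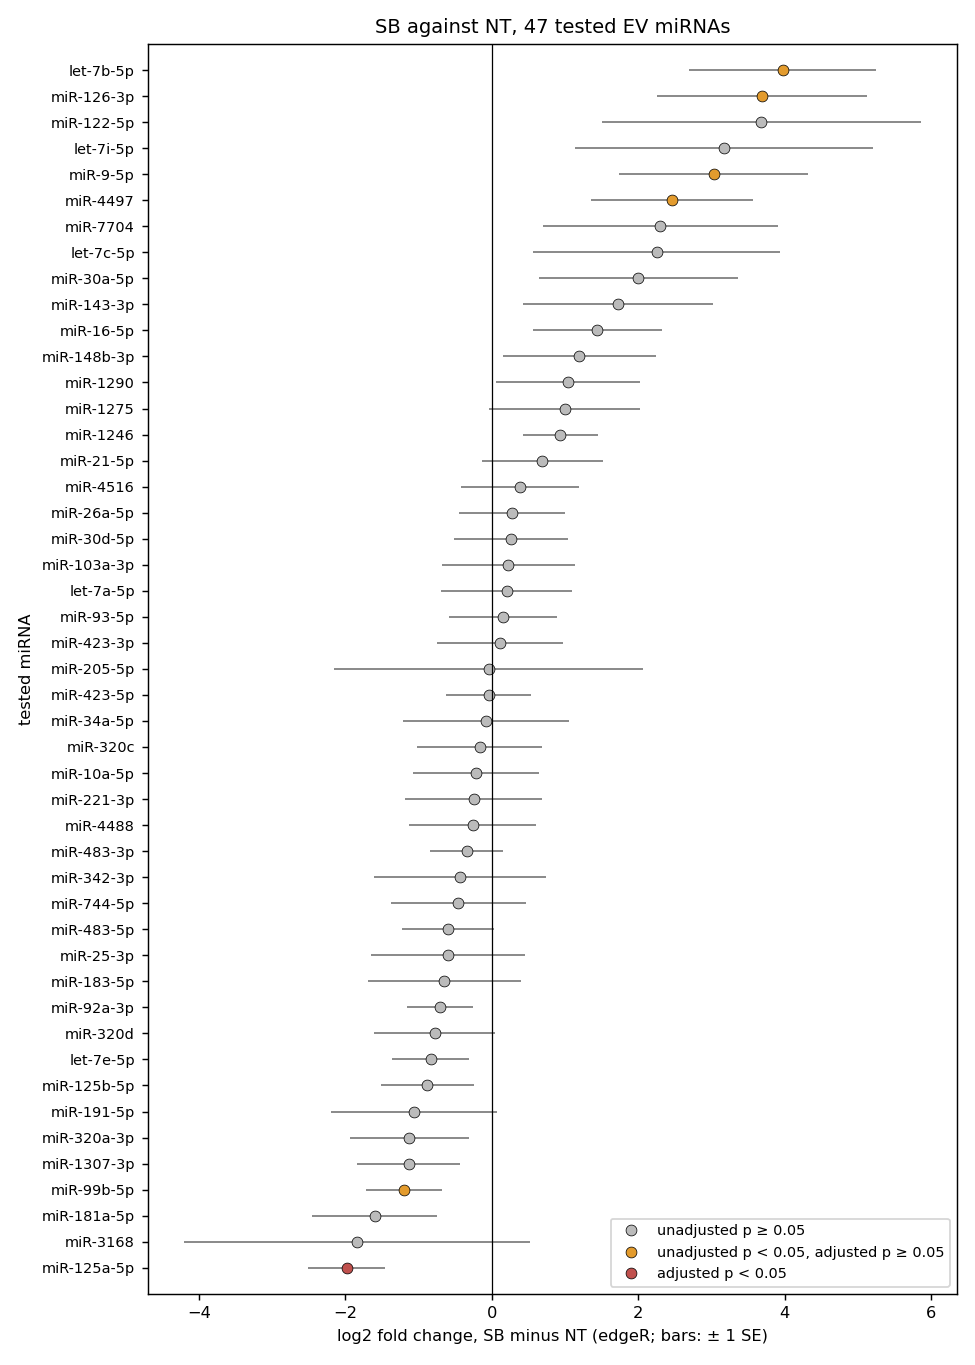
Log2 fold change, SB minus NT, of the 47 tested EV miRNAs (x axis; one row per miRNA), with bars of ± 1 SE from edgeR. The point of miR-125a-5p, at -1.98, is the only 1 with an adjusted p below 0.05, and the bars of the estimates above 2 are wide.

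The miR-99b, let-7e and miR-125a cluster lies on chromosome 19 of GRCh38, plus strand, within an intron of SPACA6 and opposite an exon of the lncRNA SPACA6P-AS. MIR99B spans 51692612 to 51692681, MIRLET7E spans 51692786 to 51692864, and MIR125A spans 51693254 to 51693339. All 3 of its tested members had estimates below 0, with a median log2 fold change of -1.20, against -0.04 over all tested miRNAs. The summed share of its 5 members with counts was 5.51%, 4.47%, 8.65% and 8.48% in SB 1 to 4, and 23.9%, 18.3% and 9.70% in NT 1, 3 and 4. No SB library reached the NT range of this sum, which averaged 6.78% ± 2.11 (SD, n = 4) in SB and 17.3% ± 7.14 (n = 3) in NT. NT 4 was the nearest to the SB libraries. Of the 3 tested members, only miR-125a-5p had shares that did not overlap between the groups. Those of miR-99b-5p and let-7e-5p overlapped, so the separation of the sum cannot be read as that of each member. Both the sum and the median include miR-125a-5p, and the list was chosen with earlier results of these data known.

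The miRNA miR-125a-5p belongs to the family of the developmental timing gene lin-4. Its share was 2.90%, 1.12%, 4.70% and 4.28% in SB 1 to 4, from 10, 2, 180 and 55 counts. In NT 1, 3 and 4 it was 17.6%, 10.3% and 5.64%, from 2623, 977 and 57 counts. Each SB library was below each NT library, although SB 3 and NT 4 lay close together. The 2 counts of SB 2 give a 95% Wilson interval of 0.307% to 3.98%, which covers counting error only. The mean share was 3.25% ± 1.62 (n = 4) in SB and 11.2% ± 6.05 (n = 3) in NT, 3.45-fold higher in NT. The log2 fold change was -1.98 (SE 0.53), with an adjusted p of 0.0396 in edgeR. For scale, the libraries of cells stimulated with TGF-β1 averaged 8.90% ± 2.18 (n = 4) and those with bFGF 4.75% ± 1.26 (n = 3). Of the bFGF libraries, number 2 held 115 counts in all.

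The call on miR-125a-5p was close to the threshold. Its sign was the same in all 25 alternative fits, from -2.74 to -1.26, but it passed in 9 of them, with adjusted p from 0.00690 to 0.673. Without NT 1, where its share was highest, the adjusted p was 0.374. With the log10 library total as a covariate the log2 fold change was -1.26 and the adjusted p 0.673.

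The related miR-125b-5p, which has the same seed but comes from other loci, had shares of 0.870%, 1.12%, 1.57% and 0.389% in SB 1 to 4 and 1.96%, 1.60% and 0.990% in NT 1, 3 and 4. Its log2 fold change was -0.88 (SE 0.64), with an adjusted p of 0.456. Summed over both miRNAs, the CCCUGAG seed made up 3.77%, 2.23%, 6.27% and 4.67% of SB 1 to 4 and 19.6%, 11.9% and 6.63% of NT 1, 3 and 4. These sums did not overlap, and miR-125a-5p gave most of the counts in each library except SB 2, where each miRNA had 2.

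The cluster's miR-99b-5p, whose family targets mTOR, had shares of 1.16%, 2.23%, 2.20% and 1.32% in SB 1 to 4 and 4.78%, 3.53% and 1.29% in NT 1, 3 and 4. NT 1 and NT 3 were above every SB library, while NT 4 was within the SB range. Its log2 fold change was -1.20 (SE 0.52), with an adjusted p of 0.276. The cluster's let-7e-5p had shares of 1.45%, 0.559%, 1.54% and 2.72% in SB and 1.14%, 4.25% and 2.67% in NT, so the groups overlapped. Its log2 fold change was -0.83 (SE 0.52), with an adjusted p of 0.441.

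**Figure D2:**
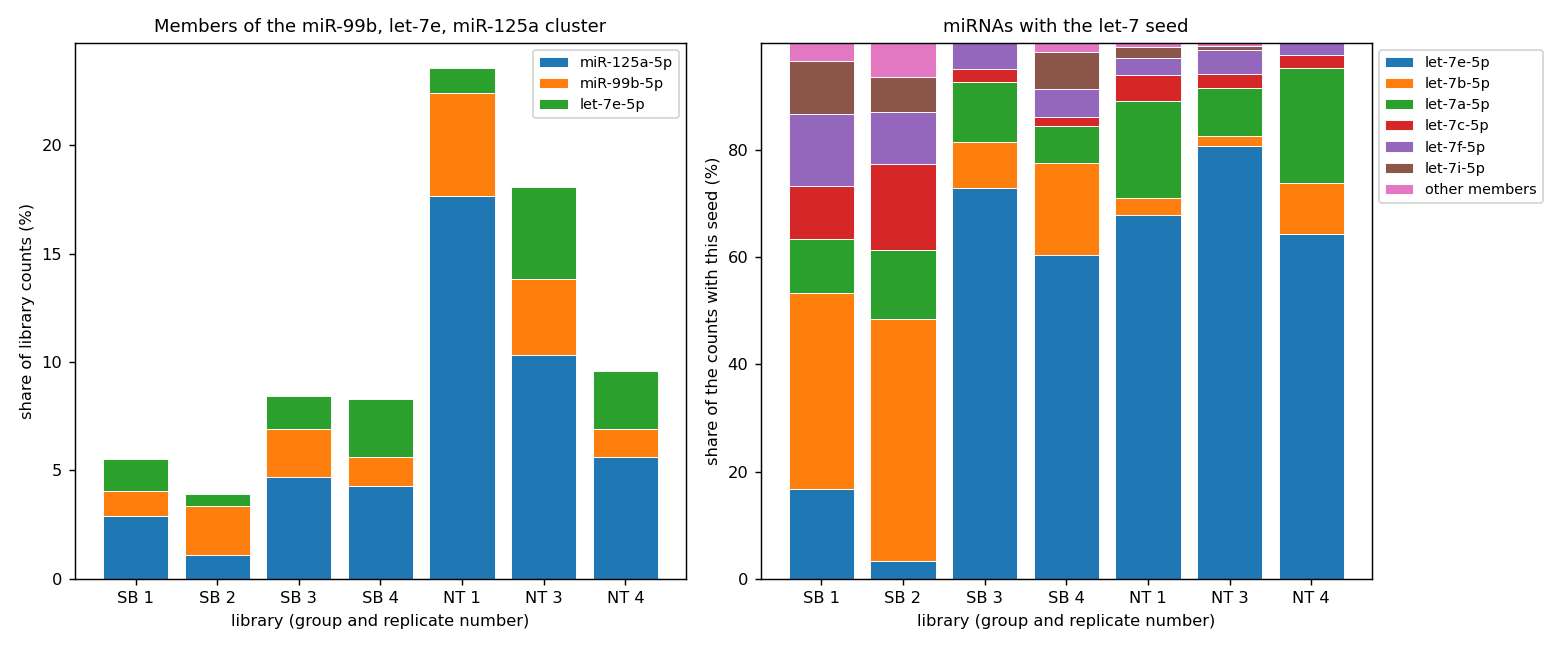
Left, share of library counts (y axis, %) of the 5p miRNAs of the chromosome 19 cluster in each library. Right, share of each let-7 miRNA among the counts with the GAGGUAG seed (y axis, %): let-7e-5p held 60.3% to 80.7% in SB 3, SB 4 and the NT libraries, and 16.7% and 3.23% in SB 1 and SB 2.

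The let-7 miRNAs, which repress LIN28 and other growth genes and accumulate as stem cells differentiate, were mixed. All 9 listed members had counts, 5 were tested, and none passed, with 4 estimates above 0, 1 below and a median log2 fold change of 2.25. Together, miRNAs with the GAGGUAG seed made up 8.70%, 17.3%, 2.12% and 4.51% of SB 1 to 4 and 1.68%, 5.26% and 4.16% of NT 1, 3 and 4. SB 1 and SB 2, the shallowest libraries, were the highest, and SB 3 and SB 4 were within the range of NT. Without let-7e-5p, the seed's share was 7.25%, 16.8%, 0.575% and 1.79% in SB and 0.538%, 1.01% and 1.49% in NT.

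The largest estimate among the let-7 miRNAs was that of let-7b-5p, encoded at MIRLET7B in an exon of the MIRLET7BHG lncRNA (chromosome 22, 46113686 to 46113768, plus strand). Its share was 3.19%, 7.82%, 0.183% and 0.778% in SB 1 to 4, and 0.0538%, 0.0951% and 0.396% in NT 1, 3 and 4. In SB 1, SB 2 and SB 4 it was above each NT library, and in SB 3 it was below NT 4. The counts behind these shares were 11, 14, 7 and 10 in SB and 8, 9 and 4 in NT, so they stayed within 4 to 14 while library totals differed 83.0-fold. The log2 fold change was 3.97 (SE 1.28), with an adjusted p of 0.104 in edgeR. With the log10 library total as a covariate it was 1.35, and in libraries of at least 500 counts it was 1.15. It passed the threshold in 5 of 25 alternatives, namely DESeq2, library totals kept over all miRNAs, and the fits without NT 4, SB 3 or TGFb 2, with log2 fold changes of 3.42 to 4.56 and adjusted p of 0.0125 to 0.0492. The part of library depth in this difference was not tested beyond these fits.

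Relative to let-7e-5p, let-7b-5p carries the substitutions G9U, A17G and A19G, with positions counted from 1 at the 5′ end, and let-7a-5p carries G9U alone. Among counts with the let-7 seed, let-7e-5p held 16.7%, 3.23%, 72.8% and 60.3% in SB 1 to 4 and 67.9%, 80.7% and 64.3% in NT 1, 3 and 4. Over the same counts, let-7b-5p held 36.7%, 45.2%, 8.64% and 17.2% in SB and 3.21%, 1.81% and 9.52% in NT. The make-up of the let-7 seed in SB 3 and SB 4 thus differed less from NT than that of SB 1 and SB 2. SB 1 and SB 2 held 30 and 31 such counts, and the other 5 libraries held 42 to 498.

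Of the other let-7 miRNAs, let-7i-5p was estimated at 3.17 (log2 fold change, SE 2.04) and let-7c-5p at 2.25 (SE 1.69), neither past the threshold (adjusted p of 0.441 and 0.456). With the library total as a covariate these estimates were -0.22 and -0.067. The estimate for let-7a-5p was 0.20 (SE 0.89, adjusted p 0.930) and its sign depended on the setting, with values of -0.35 without an expression filter and -0.66 with the covariate.

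**Figure D3:**
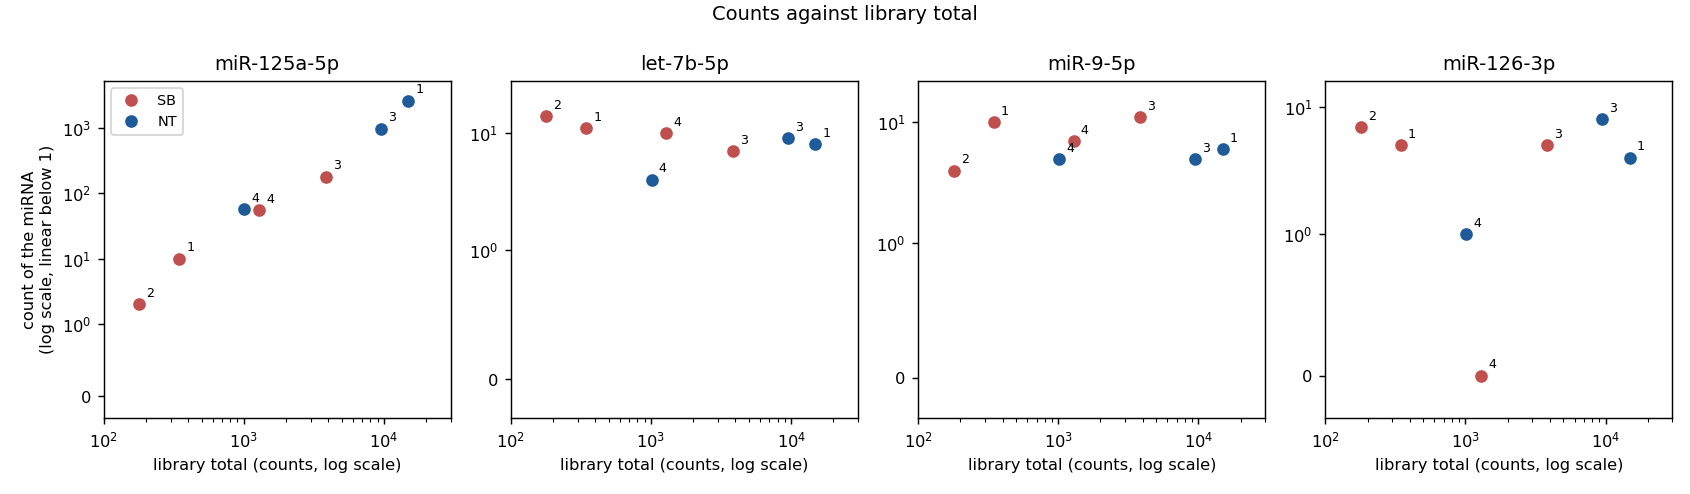
Count of each miRNA (y axis, log scale that is linear below 1) against library total (x axis, counts, log scale), with replicate numbers, for SB and NT libraries. Counts of miR-125a-5p run with the total from 2 to 2623, whereas those of let-7b-5p stay between 4 and 14.

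A further 3 miRNAs had higher estimates at an unadjusted p under 0.05. In the intron of EGFL7 that holds MIR126 (chromosome 9, 136670602 to 136670686, plus strand) lies the source of miR-126-3p, an endothelial miRNA. Its share was 1.45%, 3.91%, 0.131% and 0 in SB 1 to 4, from 5, 7, 5 and 0 counts, and 0.0269%, 0.0845% and 0.0990% in NT, from 4, 8 and 1 counts. SB 1 and SB 2 were high, and SB 4 was below all NT libraries. The log2 fold change of 3.69 (SE 1.43, adjusted p 0.245) was 0.022 in libraries of at least 500 counts. It passed in 2 of 23 alternatives, DESeq2 with 4.26 (adjusted p 0.0228) and the fit without NT 4 with 3.64 (adjusted p 0.04996). Among the endothelial markers listed, miR-126-5p had 1 count in each group.

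The neural progenitor miRNA miR-9-5p had shares of 2.90%, 2.23%, 0.288% and 0.544% in SB 1 to 4, from 10, 4, 11 and 7 counts, and 0.0404%, 0.0528% and 0.495% in NT, from 6, 5 and 5 counts. SB 3 was below NT 4, so the groups overlapped. These counts stayed within 4 to 11 while library totals differed 83.0-fold. Over 23 alternatives the log2 fold change of miR-9-5p ran from 0.77 to 4.24, and it passed in 1, the fit without NT 4. As reported, its log2 fold change was 3.03 (SE 1.29), with an adjusted p of 0.276. The other listed neural marker, miR-124-3p, was at 0 in all 7 libraries.

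The share of miR-4497 was 1.74%, 0.559%, 1.80% and 2.41% in SB 1 to 4 and 0.161%, 0.201% and 0.594% in NT. SB 1, SB 3 and SB 4 were above all NT libraries, and SB 2, with a single count, was just below NT 4. It averaged 1.63% ± 0.774 (n = 4) in SB and 0.319% ± 0.239 (n = 3) in NT, and its estimated log2 fold change was 2.46 (SE 1.11, adjusted p 0.276). Its estimate was above 0 in all 25 alternatives and passed in 0 of them. The share of miR-7704 was 5.51%, 3.91%, 2.04% and 2.64% in SB and 0.202%, 0.201% and 1.78% in NT, without overlap. Its log2 fold change was 2.31 (SE 1.61), with an adjusted p of 0.456. The upper Wilson limit of NT 4 for miR-7704 was 2.80%, above the shares of SB 3 and SB 4. The lower limit of SB 3 was 1.64%, below the share of NT 4. For miR-7704, the separation of SB 3 and SB 4 from NT 4 was thus not resolved at this depth. Both miRNAs have numbers above 3000 in miRBase, a set of late entries of which 94 had counts and 5 were tested. That set held 9.76% ± 3.03 of SB counts and 5.59% ± 4.45 of NT counts, with none past the threshold.

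**Figure D4:**
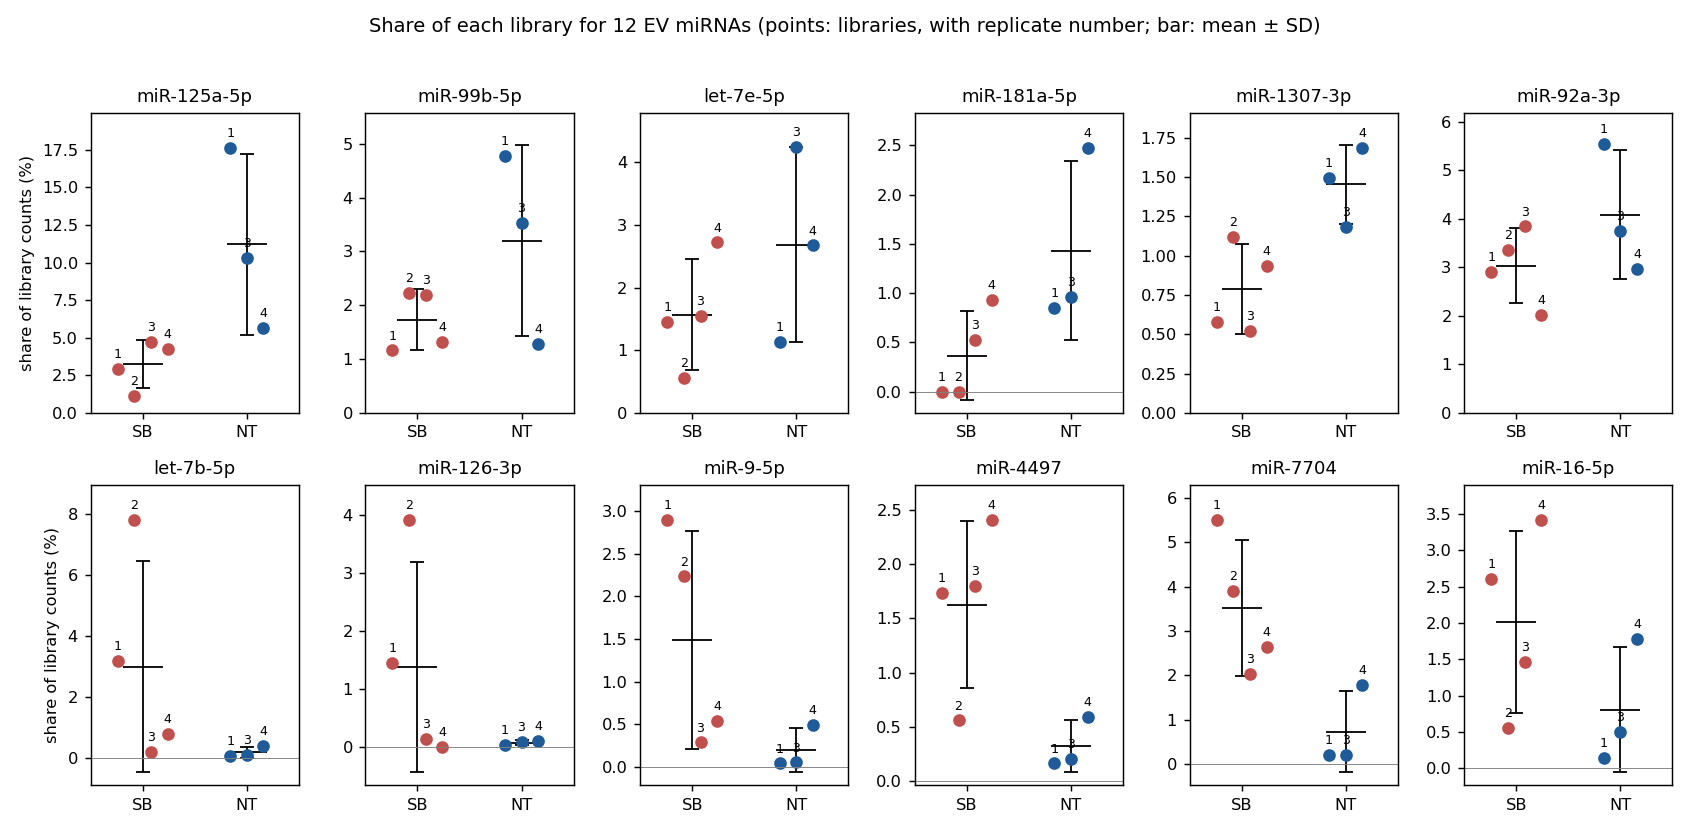
Share of library counts (y axis, %) of 12 miRNAs in SB (4 libraries) and NT (3 libraries); points are libraries with their replicate number, and lines are mean ± SD. The groups do not overlap for miR-125a-5p, miR-1307-3p and miR-7704, and NT 4 often lies nearer to SB than NT 1 and NT 3 do.

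Among miRNAs with lower estimates, miR-181a-5p, one of those known to rise with TGF-β signalling, had 0, 0, 20 and 12 counts in SB 1 to 4 and 126, 91 and 25 in NT 1, 3 and 4. As shares these were 0.523% in SB 3 and 0.933% in SB 4, against 0.848%, 0.962% and 2.48% in NT. The log2 fold change was -1.60 (SE 0.85), with an adjusted p of 0.441. The shares of miR-1307-3p were 0.580%, 1.12%, 0.523% and 0.933% in SB and 1.49%, 1.18% and 1.68% in NT, which did not overlap. The gap between SB 2 and NT 3 was small, and the log2 fold change was -1.14 (SE 0.70, adjusted p 0.441). SB 1 and SB 2 held 2 counts each of miR-1307-3p, with upper Wilson limits of 2.09% and 3.98%, above every NT share. For miR-320a-3p, whose hairpin is processed without Drosha, shares were 0.290%, 0.559%, 0.366% and 0.389% in SB and 0.821%, 0.592% and 0.792% in NT. Here too every SB library was below every NT library, with a log2 fold change of -1.13 (SE 0.81, adjusted p 0.456). SB 1 and SB 2 held 1 count each of miR-320a-3p, with upper Wilson limits of 1.62% and 3.10%, above every NT share. The upper limit of SB 4 was 0.907% for miR-320a-3p, above every NT share, and 1.62% for miR-1307-3p, above NT 1 and NT 3. That of SB 3 was 0.613% for miR-320a-3p, above NT 3, and 0.806% for miR-1307-3p, below every NT share. For both miRNAs, the separation of SB 1, SB 2 and SB 4 from all NT libraries was thus not resolved at this depth. For miR-320a-3p, that of SB 3 from NT 3 was not resolved either. The growth-promoting miR-92a-3p of the polycistron that starts with miR-17 was estimated at -0.71 (log2 fold change, SE 0.45, adjusted p 0.441).

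Of the 10 listed miRNAs known to rise with TGF-β, all 10 had counts, 3 were tested and none passed, with 2 estimates above 0 and 1 below. Their median log2 fold change was 0.69, against -0.04 over all tested miRNAs, and their summed share was 5.22%, 3.35%, 1.88% and 4.67% in SB 1 to 4 and 1.56%, 1.98% and 6.93% in NT 1, 3 and 4. The means were 3.78% ± 1.49 (n = 4) in SB and 3.49% ± 2.99 (n = 3) in NT, and NT 4 alone was above the SB range. The 3 tested were miR-181a-5p, the fibrosis-linked miR-21-5p, with a log2 fold change of 0.69 (SE 0.82, adjusted p 0.706), and the smooth muscle miRNA miR-143-3p, with 1.73 (SE 1.29, adjusted p 0.456). Shares of miR-21-5p were 2.90%, 1.68%, 0.706% and 1.24% in SB and 0.0875%, 0.296% and 2.67% in NT. NT 4 was thus near the top of the SB range, and NT 1 and NT 3 were below it. Without NT 4 the estimate for miR-21-5p was 2.62 and passed the threshold, while without NT 1 it was -0.065. Of the 16 miRNAs listed as targeting the TGF-β receptors, which include the let-7 miRNAs, 6 were tested, with 5 estimates above 0, 1 below, a median of 1.23 and none past the threshold.

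By mean share over the 7 libraries, the most abundant EV miRNAs were the arms of miR-483, which lies in an intron of IGF2, a growth factor gene expressed by the embryonic epicardium. The 5p arm held 23.2%, 7.26%, 28.6% and 15.2% of SB 1 to 4 and 28.7%, 26.9% and 15.4% of NT 1, 3 and 4. The 3p arm held 11.0%, 11.7%, 10.8% and 8.32% of SB and 10.7%, 15.5% and 6.44% of NT. The groups overlapped for both arms, whose log2 fold changes were -0.60 (SE 0.63, adjusted p 0.651) and -0.34 (SE 0.50, adjusted p 0.815). The log2 ratio of 5p to 3p counts was taken with 0.5 added to each count, which draws it towards 0 where counts are few. This ratio was 0.67 ± 0.92 in SB and 1.16 ± 0.32 in NT for miR-483. For miR-423 it was 1.17 ± 0.63 in SB and 1.51 ± 0.21 in NT. Neither differed beyond the spread between libraries (two-sided exact permutation tests over 35 assignments, adjusted p 0.543 for both), where the smallest p possible was 0.0286.

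Other groups of miRNAs had no member past the threshold. The miRNAs listed as abundant in EVs held 14.7% ± 1.17 (n = 4) of SB counts and 9.48% ± 4.92 (n = 3) of NT counts, with 4 of 9 tested estimates above 0 and 5 below. Within NT this sum was 6.43% and 6.85% in libraries 1 and 3 and 15.1% in library 4, inside the range of SB, 13.4% to 16.2%. Its member miR-1246 had shares of 4.06%, 5.59%, 7.16% and 2.88% in SB and 0.659%, 2.37% and 4.26% in NT, with a log2 fold change of 0.94 (SE 0.51, adjusted p 0.441). The cell cycle regulator miR-16-5p had shares of 2.61%, 0.559%, 1.46% and 3.42% in SB and 0.141%, 0.497% and 1.78% in NT, with a log2 fold change of 1.44 (SE 0.89, adjusted p 0.441). The miR-30 miRNAs, with 2 of 7 tested, had a median of 1.13, and the miRNAs of the miR-17 polycistron and its paralogs, with 3 of 11 tested, a median of -0.60. The 9 proliferation miRNAs, with 5 tested, had a median of 0.23, the 7 of the miR-99a, miR-100 and miR-125b clusters, with 2 tested, 0.69, and the 5 of the HOX clusters, with 1 tested, -0.22.

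Markers of other cell types differed in level between libraries. The 7 epithelial miRNAs (the miR-200 family, miR-205-5p and miR-203a-3p) summed to 0 to 1.71% in SB and 0.0404% to 1.98% in NT, and number 4 was the highest in both groups. The 9 mural and stromal ones summed to 0.131% to 1.68% in SB and 0 to 1.09% in NT. Of the 8 pluripotency miRNAs only miR-372-3p had counts, 1 in SB and 2 in NT. Of the 4 blood miRNAs, miR-486-5p had 1 count in SB and 3 in NT, and miR-223-3p had 1 in SB and 0 in NT. The others listed, miR-144-3p and the red cell miRNA miR-451a, were at 0 in all 7 libraries. Of the 7 muscle miRNAs 3 had counts and 0 were tested. The hepatocyte miRNA miR-122-5p had 0, 7, 0 and 10 counts in SB 1 to 4 and 0, 0 and 4 in NT 1, 3 and 4. It made up 3.91% of SB 2, 0.778% of SB 4 and 0.396% of NT 4, with a log2 fold change of 3.68 (SE 2.18, adjusted p 0.441). In SB 1 and SB 2 the endothelial miR-126-3p and the neural miR-9-5p, described above, also made up 1.45% to 3.91% of counts. The part of the replicate number in this was not tested.

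The number of miRNAs with counts was 65, 62, 196 and 129 in SB 1 to 4 and 274, 227 and 141 in NT 1, 3 and 4. Of the 398 miRNAs, 193 had counts in both groups, 45 only in SB and 160 only in NT, and 32 were found in all 7 libraries. The 45 found only in SB made up 1.08% of SB counts, and 30 of them rested on 1 count. The 160 found only in NT made up 1.65% of NT counts, and 76 rested on 1 count. No miRNA had counts in 3 or more SB libraries and none in NT. In the other direction 4 were present in all 3 NT libraries and at 0 in SB, miR-330-5p, miR-1270, miR-1343-5p and miR-877-5p, with 1 to 4 counts per library. A count of 0 among the 5636 pooled counts of SB allows a share of up to 0.0532%. Per library this limit was 0.870%, 1.68%, 0.0784% and 0.233% in SB 1 to 4. The shares of miR-877-5p in NT 1 and NT 3, 0.0269% and 0.0317%, were below all of these, so its absence from SB was not resolved at this depth.

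Thinned to 179 counts, the depth of SB 2, a library was expected to hold 56.7 ± 6.44 different miRNAs in SB and 51.1 ± 13.7 in NT. The 10 most abundant miRNAs held 56.6% ± 7.73 of counts in SB and 64.9% ± 15.6 in NT. The inverse Simpson number, which counts miRNAs weighted by abundance, was 17.4 ± 7.56 in SB and 13.5 ± 9.31 in NT. These 3 measures and the log10 library total, which was lower in SB by a mean difference of -0.85, gave an adjusted p of 0.571 each (two-sided exact permutation tests, adjusted over 4).

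**Figure D5:**
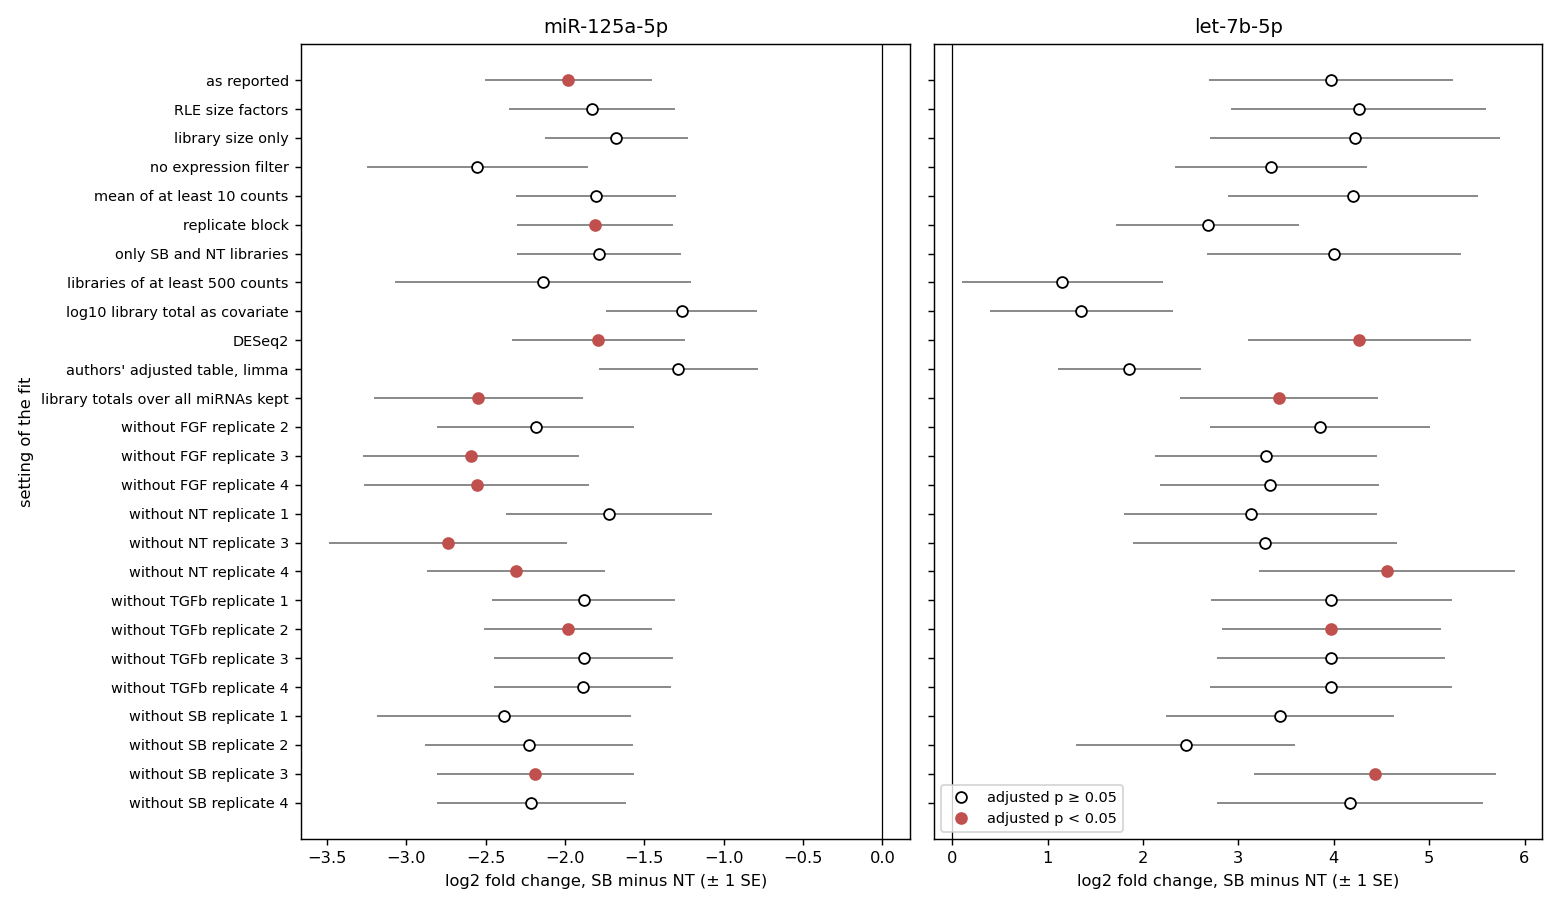
Log2 fold change, SB minus NT (x axis, ± 1 SE), of miR-125a-5p and let-7b-5p as reported and under 25 other settings (y axis). The sign was the same in every setting shown, and filled points mark an adjusted p below 0.05, in 9 of the 25 for miR-125a-5p and in 5 for let-7b-5p.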

How the data were processed

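Small RNA of EVs was analysed from the deposited tables. Per the labels' protocols, a polyethylene glycol kit (miRCURY) precipitated the EVs, and the QIAseq miRNA kit was used for libraries. GRCh38 is named per the submitters' processing notes. The aligner, the miRNA annotation and any use of molecular identifiers are not given in the sources used here, so a count may stand for a read or a molecule. The authors' deposited raw table holds whole-number counts per miRNA with no normalization. The authors' adjusted table was treated as a score, because its whole numbers are not raw counts and how they were made is not stated, and it differed from the raw table in 599 of the 1094 nonzero values of the 7 libraries. Its 2 last lines, which name no miRNA, were left out, as were 14 columns of per-library CPM that the authors deposited.

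Shares are counts over the library total. All 14 libraries entered 1 fit of group means with edgeR 4.0.16 in R 4.3.3 (glmQLFit, robust, TMM, filterByExpr with a minimum count of 10, library sizes recomputed after filtering), which left 47 miRNAs. P-values were adjusted over these 47, with a threshold of 0.05, and SE was the absolute log2 fold change over the square root of F. The biological coefficient of variation was 0.778. Fits were checked on simulated data. Single values were compared by exact permutation over 35 assignments. Depth ran from 179 to 14862 counts per library, and intervals (95% Wilson) cover counting error only. All 9 pairs of replicates within SB and NT differed beyond sampling noise (chi-square with 2000 resamples), so none were merged.

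Replicate numbers come from the titles. Same-numbered SB and NT libraries deviated together from their group means in 3 of 3 pairs (correlations of 0.275 to 0.346). Differently numbered libraries were not compared in this way, so whether the numbers pair the libraries was not tested. The fit reported did not use the numbers, and a fit with the number as a block was an alternative. Over all 4 groups 15 of 18 pairs were above 0.1.

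Alternative fits used RLE factors, no scaling factor beyond library size, DESeq2 1.42.0, 3 other expression filters, the replicate block, SB and NT alone, libraries of at least 500 counts, the log10 total as a covariate, the adjusted table (limma 3.58.1), and each library left out. Keeping library totals over all miRNAs was added after the data were seen. The comparison and the miRNA lists were chosen with earlier results of these data known. Named miRNAs are the 10 smallest p-values per direction, the 10 highest mean shares, tested list members, and untested miRNAs with counts in at least 3 libraries of 1 group and none in the other. The 27 described by the first 2 rules and by the marker, let-7 and TGF-β lists were followed under every alternative.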

Additional observations from a re-analysis of the deposited data

Results flagged for a closer look

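The epithelial miRNA miR-205-5p made up 0.855% of library SB 4, from 11 counts, while SB 1, SB 2 and SB 3 had none, which set that library apart from the others of its group. The upper 95% Wilson limits of those zeros were 1.10% in SB 1 and 2.10% in SB 2, above the share of SB 4, so a difference from these libraries was not detectable at this depth. In NT it had 3, 2 and 11 counts in numbers 1, 3 and 4, and the library of 11 was again number 4. The log2 fold change between the groups was -0.04 (SE 2.11, adjusted p 0.984 in edgeR). Of 33 sets of 4 values examined in this way, 1 stood out, where chance gives about 1 in 20, or 1.65.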

How the results depend on the processing

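The number of calls, 1 of 47, was 0 with RLE factors, library size only, no expression filter, a mean of at least 10 counts, SB and NT alone, libraries of at least 500 counts, the log10 total as a covariate and the adjusted table. At an unadjusted p under 0.05 these 8 fits had 6, 4, 31, 4, 4, 4, 2 and 7 miRNAs. DESeq2 called 3 (let-7b-5p and miR-126-3p higher, miR-125a-5p lower), and keeping library totals, chosen after seeing the data, called 2 (let-7b-5p and miR-125a-5p). The filter of 10 counts in every library left no miRNA to test. Leaving out 1 library gave 0 to 9 calls. Without NT 4 there were 9, with let-7b-5p, miR-122-5p, miR-126-3p, miR-143-3p, miR-21-5p, miR-30a-5p and miR-9-5p higher and miR-125a-5p and miR-99b-5p lower. Without SB 3 or TGFb 2 there were 2, and there were 0 without SB 1, SB 2, SB 4, NT 1, FGF 2, TGFb 1, TGFb 3 or TGFb 4, where 3 to 7 had an unadjusted p under 0.05. The replicate block called 1, the same miR-125a-5p (log2 fold change -1.81, SE 0.49, adjusted p 0.0425), and changed no other call. Non-overlapping shares, 4 in all, were 9 in libraries of at least 500 counts and 4 to 12 with a library left out. The median log2 fold change of -0.04 was 0.13 with RLE factors, 0.16 with library size only, 0.27 with the covariate and -0.35 with totals kept.

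Some estimates near 0 or with wide errors changed sign. That of let-7a-5p was -0.35 without a filter, -0.23 with the block, -1.40 in libraries of at least 500 counts, -0.66 with the covariate, -0.024 in the adjusted table, -0.30 with totals kept and -0.93 to 0.64 with a library left out. That of miR-423-5p was 0.13 with RLE factors, 0.16 with library size only, 0.13 with a mean of 10 counts, 0.067 with SB and NT alone, 0.42 with the covariate, 0.18 in DESeq2, 0.12 in the adjusted table and -0.57 to 0.040 with a library left out. With the covariate let-7c-5p was -0.067, let-7i-5p -0.22 and miR-483-5p 0.43. In the adjusted table miR-483-3p was 0.030, and in libraries of at least 500 counts miR-205-5p was 0.18. With a library left out miR-205-5p ran from -6.29 to 3.27 and miR-21-5p from -0.065 to 2.62. The cause was not tested in any of these. Depth limits every estimate, since 1 count is 0.559% of SB 2.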
